A study of Capra hircus with 2 samples.

Results

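miR-2887 and miR-2478 are 2 of the 346 conserved miRNA sequences that the study listed for the mammary gland of the dairy goat, and they are described here through the ends and lengths of their sequenced reads. Both were chosen by their higher read numbers at peak lactation, so the comparison of their levels between the stages is given as a description without a test. A sequenced tag, which is 1 distinct read sequence with its count, was assigned to a member when it held the middle 14 bases of the listed sequence. This rule took 104 of 788915 tags in the dry period library and 324 of 1108514 in the peak lactation library for miR-2887. It took 169 and 316 tags, respectively, for miR-2478.

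Small RNA was sequenced from mammary gland tissue of Xinong Saanen dairy goats, a Chinese domestic breed, at peak lactation and in the dry period. The study's text gives the animals' age as 2.5 years, and tissue of 3 goats was pooled at each stage, so that 1 library stood for each stage and the spread between animals was not measured. The sample labels give 75 days after lambing for the dry period and 320 days for peak lactation, whereas the study's text states the reverse; the stages are therefore named here by physiological state only. There were 14851375 clean reads for the dry period (library D) and 15712891 for peak lactation (library P), all of 18 to 44 nt. A stage and its library cannot be told apart in this design, and every interval below is a 95% Wilson interval that covers counting error only.

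A miRNA is cut from a hairpin precursor by Drosha and Dicer, and its 5′ end fixes the seed through which it finds its targets, so most reads of a miRNA begin at the same base. Transfer RNAs and ribosomal RNAs also yield short fragments, whose ends follow the cleavage and the modified bases of the parent. A transfer RNA is transcribed by RNA polymerase III with a trailer that ends in a run of U; the trailer is cut off, the letters CCA are added to the 3′ end, and the T arm near that end carries a methylated adenine in many transfer RNAs at which reverse transcriptase often stops or inserts another base.

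The listed sequences are shown first because every offset below is counted from their ends. The capitals in the first pair mark the seed, bases 2 to 8, and those in the second pair the middle 14 bases by which tags were found. All sequences are written 5′ to 3′ with T for U, as they were sequenced.
miR-2887, listed: tCGGGACCggggtccggtgcg
miR-2478, listed: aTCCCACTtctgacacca
miR-2887, middle bases: tcgGGACCGGGGTCCGGtgcg
miR-2478, middle bases: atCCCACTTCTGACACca
The sequence of miR-2887 has 21 bases, of which 81.0% are G or C, and that of miR-2478 has 18 bases, of which 50% are G or C. The last letters of miR-2478 are CCA. No tag of either library held the reverse complement of the middle bases of either member, so all their reads lay on the listed strand.

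miR-2887 had 769 reads in the dry period library and 5080 at peak lactation. Divided by the clean reads, its level was 51.8 RPM (reads per 1000000 clean reads; interval 48.2 to 55.6) in the dry period and 323 RPM (315 to 332) at peak lactation. It was 6.24-fold higher in the peak lactation library, a log2 ratio of 2.64 (2.53 to 2.75). miR-2478 had 3356 and 8131 reads, which gave 226 RPM (218 to 234) in the dry period and 517 RPM (506 to 529) at peak lactation. Its ratio was smaller, 2.29-fold, or 1.20 on the log2 scale (1.14 to 1.25). The members were selected on this contrast, for which the study reported smaller ratios from its own counts. Among 284 listed miRNAs with at least 10 reads in a library, 7 were at least 2-fold higher at peak lactation, which is 2.46% (miR-144, miR-451, miR-671, miR-2411*, miR-2904 and both members).

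Log2 ratios were compared further among the 205 listed miRNAs with at least 100 reads in a library. The 3 nearest to miR-2478 were miR-451 (769 and 1714 reads, log2 1.07), miR-144 (258 and 559 reads, 1.03) and miR-323 (165 and 262 reads, 0.59). Those nearest to miR-2887 were miR-2478, miR-451 and miR-144, and the nearest of them differed from it by 1.45 on the log2 scale. No other miRNA of this abundance therefore shared the size of the ratio of miR-2887. Below that number of reads, miR-671 (4 and 13 reads, log2 1.62), miR-2411* (24 and 82, 1.69) and miR-2904 (7 and 32, 2.11) lay nearer to miR-2887. Both miR-671 and miR-2411* also lay nearer to miR-2478 than miR-323 did. The libraries also differed as a whole. Reads that held the middle bases of no listed miRNA made up 36.5% of the dry period library and 84.8% of the peak lactation library, a log2 ratio of 1.21. The listed miRNAs other than the members went the other way, from 9420299 to 2376757 reads (log2 -2.07), with a median log2 ratio of -1.46 over the listed miRNAs with at least 10 reads. On this scale miR-2478 stood beside the reads of no listed miRNA and miR-2887 stood above them. Scaling on the listed miRNAs with trimmed-mean (TMM) factors in place of clean reads gave log2 4.07 for miR-2887 and 2.62 for miR-2478. What the changed make-up of the library contributed to either ratio was not tested.

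Few reads of either member were identical to the listed sequence. For miR-2887 these were 46 of 769 reads (5.98%) in the dry period and 160 of 5080 (3.15%) at peak lactation. For miR-2478 they were 655 of 3356 (19.5%) and 1448 of 8131 (17.8%). The identical reads alone gave log2 ratios of 1.72 (1.25 to 2.19) for miR-2887 and 1.06 (0.93 to 1.20) for miR-2478. The ratio of miR-2887 thus depended on which reads were counted under its name, since the listed form had a smaller ratio than the whole set of its tags. Some of the most abundant tags of each member, the identical ones included, are written with the listed letters in capitals and the bases outside them in lower case.
miR-2887, 131 and 535 reads: cgcgTCGGGACCGGGGTCCGGTG
miR-2887, 16 and 311 reads: ccgcgcgTCGGGACCGGGGTCCGG
miR-2887, 4 and 298 reads: gccgcgcgTCGGGACCGGGGTCCGGTG
miR-2887, 46 and 160 reads: TCGGGACCGGGGTCCGGTGCG
miR-2478, 655 and 1448 reads: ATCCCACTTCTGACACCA
miR-2478, 395 and 1049 reads: ttcgtATCCCACTTCTGACACCA
miR-2478, 300 and 720 reads: cgtATCCCACTTCTGACACCA
miR-2478, 281 and 306 reads: tcgtATCCCACTTCTGACACCA
In each line the dry period count comes first. The miR-2887 tags shown stop short of the listed 3′ end except for the identical one, whereas the miR-2478 tags all stop at it.

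The 5′ ends of both members were spread over many bases in both libraries. A 5′ offset is the distance from the listed 5′ end, negative when the read begins upstream. The most used 5′ end of miR-2478 held 21.8% of its reads in the dry period (20.4% to 23.2%, offset 0) and 23.4% at peak lactation (22.5% to 24.3%, offset -5). That of miR-2887 was at offset -4 in both libraries and held 36.2% (32.8% to 39.6%) in the dry period and 21.8% (20.6% to 22.9%) at peak lactation. These were the 2 lowest shares in each library, among 205 listed miRNAs with at least 100 reads in the D library and 155 in the P library. The miRNA next above them was miR-1434 in the dry period, at 38.3%, and miR-126* at peak lactation, at 46.5%. The share of miR-1434 lay within the interval of miR-2887, so these neighbours did not differ beyond counting error. The other listed miRNAs had a median share of 98.6% in the D library and 98.9% in the P library. Shares under 50% were found for 3 listed miRNAs (1.46%) in the D library and 4 (2.58%) in the P library, the members included. Counting the ends that held at least 5% of reads gave 7 for miR-2887 in both libraries and 6 and 7 for miR-2478, against a median of 1 for the other listed miRNAs, whose highest numbers were 4 and 3. With 74 reads at peak lactation, miR-1434 fell below the floor and was not compared there. Its most used 5′ end held 31.1% of these reads (21.7% to 42.3%), and 7 ends held at least 5%, as many as for the members.

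**Figure D1:**
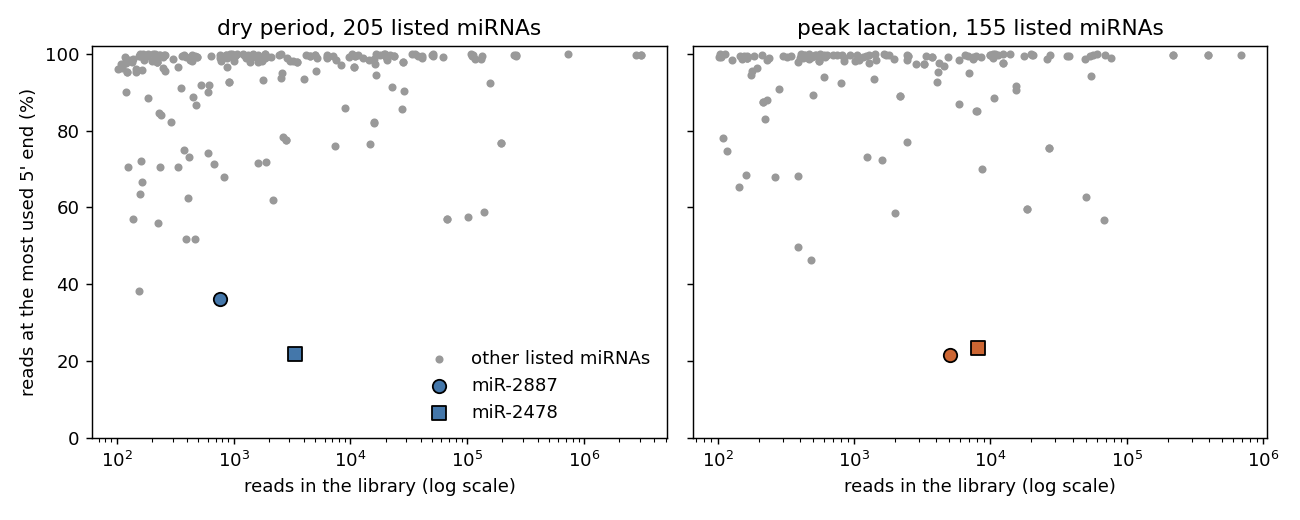
Percentage of reads at the most used 5′ end (vertical axis) against the number of reads (horizontal axis, log scale) for each listed miRNA with at least 100 reads, with the dry period library on the left and the peak lactation library on the right. miR-2887 (circle) and miR-2478 (square) lie below all other listed miRNAs (grey points), most of which lie above 90%.

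The 3′ ends separated the members from each other. A 3′ offset is counted in the same way from the listed 3′ end. In miR-2478 the listed end held 94.96% of reads in the dry period (94.2% to 95.7%) and 95.9% at peak lactation (95.4% to 96.3%), the highest share at a single 3′ end among the listed miRNAs in each library under this rule. For so short a sequence the rule leaves out reads that end more than 2 bases early or carry other letters there, and with the first 14 bases as the required stretch the share was 92.9% in the dry period, so its first place there depends on the rule. The next highest were miR-380-3p at 94.0% in the dry period and miR-1 at 90.03% at peak lactation, and the median of the other listed miRNAs was 48.1% and 48.6%. miR-380-3p had 182 reads, and its order against miR-2478 was not tested. In miR-2887 the most used 3′ end was offset -2, with 27.2% of reads in the dry period (24.2% to 30.4%) and 29.8% at peak lactation (28.5% to 31.1%), the third and sixth lowest shares of the libraries. Thus miR-2478 had a loose 5′ end and a fixed 3′ end, whereas miR-2887 was loose at both.

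The 5′ ends of miR-2887 lay from 12 bases upstream to 3 bases downstream of the listed end, the farthest downstream that the rule allows, and among the reads that hold the middle bases the far upstream ends had larger shares at peak lactation. Reads starting at offset -4 numbered 278 in the D library and 1105 in the P library, a 3.76-fold higher RPM. Those at offset 0, the listed end, numbered 92 and 487 (11.96% and 9.59% of reads), or 5.003-fold. The ratios of both ends were below that of the member as a whole, and both held a smaller share at peak lactation. At offset 0, however, the intervals of the 2 shares overlapped (9.86% to 14.4% and 8.81% to 10.4%). Its log2 ratio of 2.32 (2.00 to 2.64) also overlapped the interval of the member, 2.53 to 2.75. At offset -5 there were 97 and 601 reads (12.6% and 11.8%, 5.86-fold), and each share lay within the interval of the other.

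The ratio was larger at each of the next 3 bases upstream and smaller again beyond them. Offset -6 had 53 and 598 reads (6.89% and 11.8%), 10.7-fold higher at peak lactation. Offset -7 had 23 and 549 reads (2.99% and 10.8%), or 22.6-fold. Offset -8 had 7 and 503 reads (0.91% and 9.90%), or 67.9-fold, with a log2 ratio of 6.09 (5.03 to 7.14). Offset -9 had 3 and 107 reads, or 33.7-fold, and offset -10 had 1 and 18, so that their ratios rest on at most 3 dry period reads. Reads that began 7 or more bases upstream numbered 34 and 1179, or 4.42% (3.18% to 6.11%) and 23.2% (22.1% to 24.4%) of the reads of miR-2887, so the intervals of these shares lay far apart. Among the remaining ends with at least 5% of reads in a library, offset -2 had 56 and 246 reads, offset -1 had 48 and 264, and offset +1 had 40 and 242. The seed of a read depends on its 5′ end, and at most 11.96% of the reads had the 5′ end that gives the listed seed.

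Among the reads that hold the middle bases, the 3′ ends of miR-2887 moved little in comparison. Reads ending before offset -4 are not counted under this rule, so a shift of 3′ ends across that point could not be seen here. Reads that stopped before the listed 3′ end made up 71.4% in both libraries. Offset -4, the shortest the rule allows, held 170 and 979 reads, offset -3 held 115 and 776, and offset -1 held 55 and 361. The listed end itself had 100 and 439 reads and a smaller share at peak lactation, 8.64% (7.90% to 9.45%) against 13.0% (10.8% to 15.6%). Past it, offset +1 had 46 and 197 reads, whereas offset +2 had 32 and 331 (9.78-fold) and offset +3 had 26 and 277 (10.1-fold). The ends past the listed one held 15.6% of reads in the dry period (13.2% to 18.3%) and 19.9% at peak lactation (18.8% to 21.04%).

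The most used 5′ end of miR-2478 differed between the libraries, and the shares at offsets 0, -4, -5, -6, -8 and -9 differed beyond their counting intervals. The listed end, offset 0, had 732 reads in the D library and 1557 in the P library (21.8% and 19.1%), 2.01-fold higher. Offset -5 had 687 and 1904 reads (20.5% and 23.4%), or 2.62-fold. Offset -3 had 629 and 1557 reads (18.7% and 19.1%). The ratios of these ends lay near that of the member. Offset -1 held 9.27% in each library (311 and 754 reads), and offset -6 held 5.27% and 6.86% (177 and 558 reads).

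Offset -4 differed from its neighbours on either side. It had 582 reads in the D library and 725 in the P library, so its share was 17.3% (16.1% to 18.7%) against 8.92% (8.32% to 9.56%), and its log2 ratio was 0.24 (0.08 to 0.39). Offset -9 lay at the other extreme, with 10 and 485 reads, a share of 0.30% (0.16% to 0.55%) against 5.96% (5.47% to 6.50%) and a 45.8-fold higher RPM (log2 5.52). Offset -8 had 20 and 177 reads, or 8.36-fold, and offset -7 had 43 and 93. The upstream ends together held 77.3% of reads in the dry period (75.9% to 78.7%) and 80.3% at peak lactation (79.4% to 81.1%). Because tags under 18 nt were removed, a read that ended at the listed 3′ end could not begin downstream of offset 0, so downstream starts (29 and 46 reads) could hardly be measured for miR-2478.

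**Figure D2:**
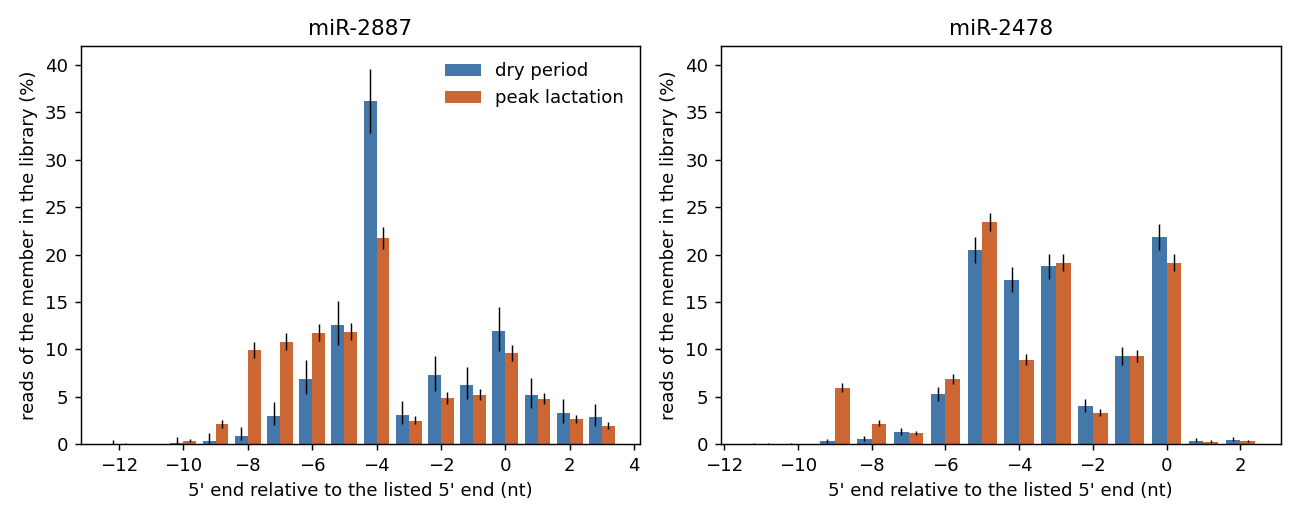
Percentage of each member's reads (vertical axis) by 5′ end in nt from the listed 5′ end (horizontal axis, negative upstream), for miR-2887 on the left and miR-2478 on the right, with dry period and peak lactation bars side by side and 95% Wilson intervals of counting error. The share of miR-2887 reads starting at -7 and -8 and of miR-2478 reads starting at -9 is higher at peak lactation, and the share at -4 is lower for both.

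The ends fix the lengths, and the difference between the libraries was largest for the long reads of both members. Reads of 24 nt or longer made up 18.1% of miR-2887 in the D library and 52.0% in the P library, against 8.61% and 17.6% for miR-2478 and a median of 3.29% and 3.21% for the other listed miRNAs. From the highest share down, miR-2887 was at place 31 of 205 listed miRNAs in the D library and 8 of 155 in the P library. miR-2478 was at places 65 and 31, so neither member was extreme in this share. The median length of a read was 22 and 24 nt for miR-2887 and 21 and 22 nt for miR-2478. For miR-2887 the log2 ratio was 1.58 for reads of 18 to 20 nt (81 and 257 reads), 1.91 for 21 to 23 nt (549 and 2180) and 4.17 for 24 nt or longer (139 and 2643). For miR-2478 it was 1.03, 1.06 and 2.23 for the same classes. The short reads of both members therefore stood much closer to each other than the long ones did.

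Reads of no listed miRNA also had their largest ratio in the longest class, with log2 ratios of 0.95, 0.93 and 1.86. At 27 nt the log2 ratio was 5.90 (4.85 to 6.95) for miR-2887, from 7 and 442 reads, 4.64 (3.99 to 5.30) for miR-2478, from 19 and 502 reads, and 2.58 for reads of no listed miRNA. Both members exceeded those reads at 27 nt by more than the counting intervals, but not at every length. At 28 nt the log2 ratio was 3.73 (2.32 to 5.13) for miR-2887 and 3.70 for reads of no listed miRNA, and at 22 nt that of miR-2478 was 0.26 (0.10 to 0.41) against 0.78. A read of miR-2887 that begins at offset -8 reaches the end of the middle bases only from a length of 25 nt, so its far upstream starts and its long reads are not independent measures. How far the general excess of long reads at peak lactation accounts for the different shares of the ends was not tested.

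**Figure D3:**
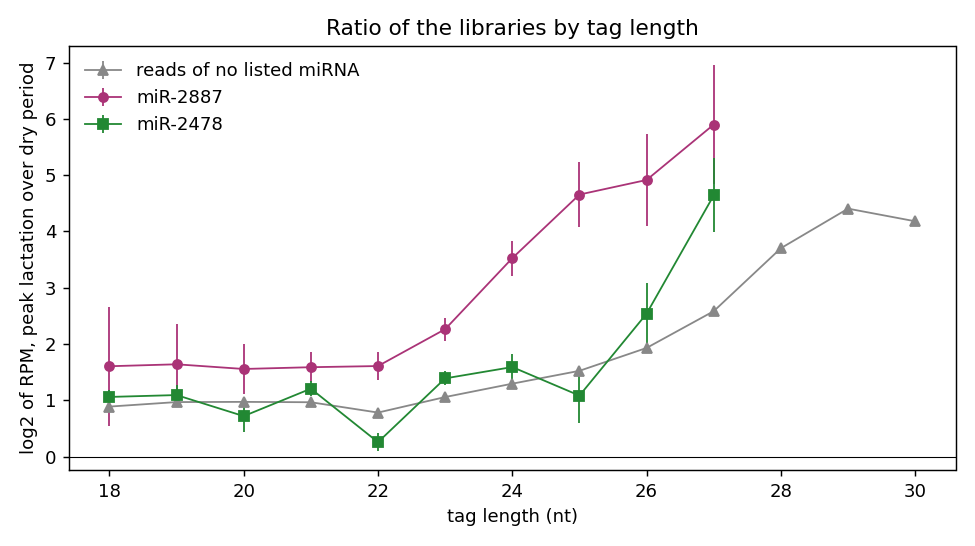
Log2 ratio of RPM, peak lactation over dry period (vertical axis), by tag length in nt (horizontal axis) for miR-2887, miR-2478 and the reads of no listed miRNA, for lengths up to 30 nt with at least 5 reads in each library; bars are 95% intervals of counting error. The ratio of miR-2887 lies near 1.6 up to 22 nt and reaches 5.90 at 27 nt, and that of miR-2478 lies lowest at 22 nt (0.26).

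The RNA around each member was read from the tags alone, since no reference sequence of a ribosomal or transfer RNA was used. The listed sequence was extended base by base with the most frequent next base among all tags that overlapped its end by 15 bases. For miR-2887 this walk ran on to the limit of 120 bases on each side, giving 261 bases. The chosen base had at least 90% of the reads at all steps except 2 on the 5′ side, the lowest at 52.1%, so the walk is a single sequence apart from those steps. The stretch around the member and the last bases of the walk are shown because they carry the identity of the parent; capitals mark listed miR-2887.
walked around miR-2887: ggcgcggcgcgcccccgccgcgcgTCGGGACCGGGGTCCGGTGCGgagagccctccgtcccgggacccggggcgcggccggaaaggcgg
walked, 3′ side, last bases: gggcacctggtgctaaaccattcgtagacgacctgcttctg
From general knowledge these letters are those of the large-subunit ribosomal RNA near its 3′ end. The assignment was not tested against a goat rRNA sequence.

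Tags from this stretch did not centre on the listed miRNA. Reads identical to some part of the 261 bases numbered 93299 in the D library and 291043 in the P library, a log2 ratio of 1.56 (1.55 to 1.57), against the 769 and 5080 reads of miR-2887. Cut by start into 13 windows of 20 bases, all 13 windows were higher at peak lactation, with log2 ratios from 0.78 to 2.93. The window of the listed start, from 0 to 19 bases, had 765 and 2840 reads (log2 1.81), and the window just upstream had 4877 and 19863 (1.94). Among the reads counted, the highest start lay 115 bases downstream, with 1156 RPM in the dry period and 3187 RPM at peak lactation.

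In this stretch a start at the listed 5′ end had 5.99 and 29.5 RPM, whereas the start 7 bases upstream had 75.8 and 232 RPM and that 8 bases upstream 77.2 and 225 RPM. The upstream starts were thus the stronger ones already in the dry period, when reads of all lengths were counted. At 8 bases upstream they numbered 1146 and 3543 reads, whereas 7 and 503 reads with that start were long enough to hold the middle bases and count as miR-2887. The 67.9-fold ratio of the member at this end therefore describes its long reads, not the use of the end as such.

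**Figure D4:**
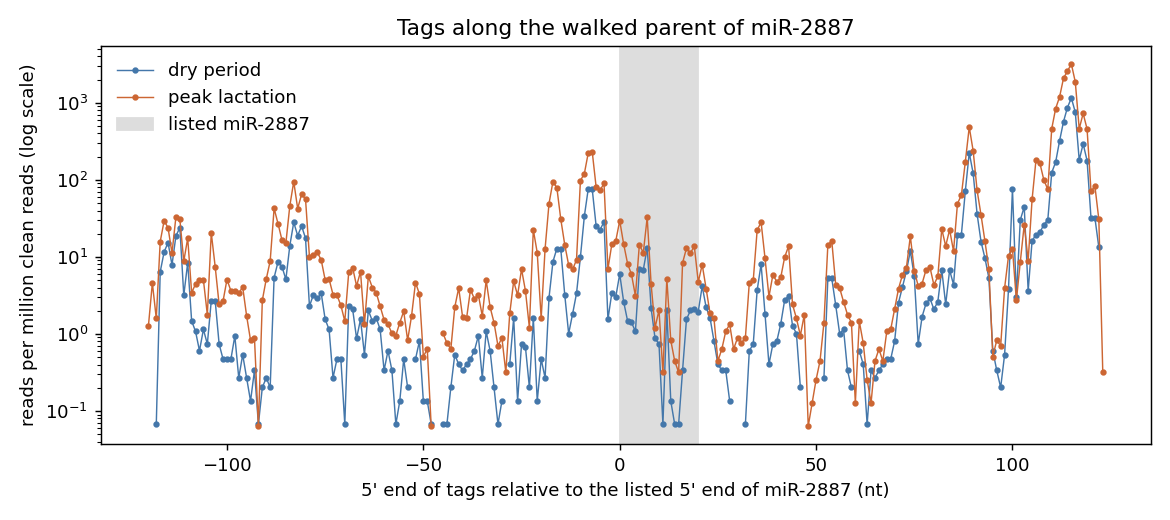
RPM of tags identical to the walked parent of miR-2887 (vertical axis, log scale) by the position of their 5′ end in nt from the listed 5′ end (horizontal axis); starts without reads are not drawn, and the grey band marks the listed sequence. The peak lactation line lies above the dry period line at most starts, and the highest start, 115 bases downstream, had 3187 RPM at peak lactation.

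For miR-2478 the walk gave 71 bases on the 5′ side and stopped after 3 bases on the 3′ side. It was less uniform, with a majority under 90% at 11 of the 5′ steps, the lowest 51.2% at the base just before the listed sequence, so it may join more than 1 sequence. The stretch from 66 bases upstream to the listed end is shown for its overall form, with listed miR-2478 in capitals.
walked to the end of miR-2478: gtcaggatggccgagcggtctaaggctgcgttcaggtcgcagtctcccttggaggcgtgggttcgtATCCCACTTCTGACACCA
From general knowledge, these letters have the order and the ends of a leucine transfer RNA followed by CCA, and miR-2478 would be its last bases from within the T loop onward. The goat annotation of RefSeq (ARS1.2) has 40 genes of leucine transfer RNAs among 1792 of transfer RNAs, and since the walk was not uniform no anticodon is given. That annotation holds 0 genes named for either member.

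The base just before listed miR-2478 varied from read to read. It was read in tags that hold TTCA or TTCG, then that base, then 18 nt ending in CCA, a form shared by the ends of many transfer RNAs. Of 901 such reads in the D library and 3062 in the P library, T stood there in 60.5% (57.3% to 63.6%) and 55.9% (54.2% to 57.7%). A stood there in 20.8% (18.2% to 23.5%) and 26.03% (24.5% to 27.6%), G in 17.0% and 16.5%, and C in 1.78% and 1.57%. All 4 bases were therefore present at the same place in both libraries, with T first. The 23-nt tags, which begin at offset -5, show it; the capital is the variable base and the reads are those of the dry period and of peak lactation.
395 and 1049 reads: ttcgTatcccacttctgacacca
141 and 447 reads: ttcgAatcccacttctgacacca
106 and 287 reads: ttcgGatcccacttctgacacca
14 and 25 reads: ttcgCatcccacttctgacacca

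All 4 bases were also found at this place in other tags of this form, in other proportions. Among 79177 and 355103 such reads that were not miR-2478, T stood at the base in 46.9% and 42.5%, A in 27.0% and 26.6%, G in 24.9% and 29.9% and C in 1.15% and 1.05%. Sorted by their last 18 nt, these reads made 42 other families with at least 100 reads in each library. Smaller families were left out of the counts below. A base other than A was read in 79.2% of the miR-2478 reads in the D library and 74.0% in the P library, against a median over the families of 78.1% (2.80% to 92.3%) and 72.0% (1.85% to 92.0%). In each library 19 of the 42 families lay above miR-2478, which put it in the middle of their range, and 37 of 42 lay above 20%. The base corresponds to the place of the methylated adenine of the T loop named above; whether the adenine was methylated in these RNAs was not tested.

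**Figure D5:**
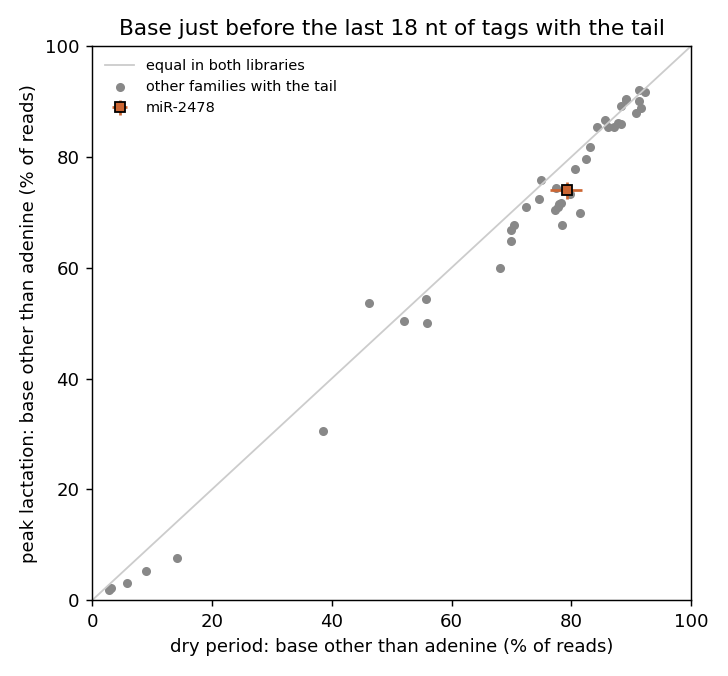
Percentage of reads with a base other than adenine just before the last 18 nt, in the dry period (horizontal axis) and at peak lactation (vertical axis), for the 42 other families of tags with the tail (grey) and miR-2478 (square, with 95% Wilson intervals); the line marks equal shares. miR-2478 lies at 79.2% and 74.0%, within the main group of families.

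Long reads were more frequent at peak lactation in the other families too. Reads of 26 nt or longer made up 3.44% of these miR-2478 reads in the dry period (31 of 901) and 21% at peak lactation (643 of 3062). Their share over the 42 other families had a median of 6.06% in the D library and 27.4% in the P library and was higher at peak lactation in 42 of 42. At peak lactation 24 of the 42 lay above miR-2478. The larger share of long reads was therefore not particular to miR-2478 among tags of this form.

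A hairpin of miR-2478 is among the precursors listed with the study, and the tags were compared with it at the bases next to the mature sequence. Its 12 bases before and 10 bases after the listed sequence are shown with listed miR-2478 in capitals.
hairpin around miR-2478: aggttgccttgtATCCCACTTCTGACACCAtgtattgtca
At the base 3 upstream the hairpin has T, which was read in 2.98% of 2149 reads in the dry period and 3.12% of 5505 at peak lactation, whereas the walked C was read in 96.6% and 96.0%. At the base 5 upstream the hairpin's C was read in 0 of 938 reads and 1 of 3223, and at the base 8 upstream its T was read in 0 of 31 and 15 of 668. At the bases 2 and 4 upstream both sequences have the same letter. Most tags thus did not follow the hairpin where it differs from the walk within 8 bases upstream. The walk was built from these same tags, so their match to it was fixed in advance.

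Downstream of the listed end few reads followed the hairpin. Reads that ran at least 1 base past the end numbered 134 and 247, of which 15 in each library matched it. Reads that ran at least 2 bases past the end numbered 103 in the D library and 212 in the P library, and 0 of each matched the hairpin. Counting error on these numbers leaves room for a few such reads. The numbers also include reads with other letters in place of CCA, described below, which already differ from the hairpin within the listed bases. Reads with CCA and further bases numbered only 76 and 89. No tag of either library lay in the hairpin elsewhere than over the listed sequence, while 869 and 1888 reads lay over it. Of 19 other conserved miRNAs with a goat hairpin from the study, 17 had reads elsewhere in the hairpin in at least 1 library, and miR-451 and miR-196a had 0. Reads elsewhere could be few even for abundant miRNAs. miR-23a had 1 in each library beside 14587 and 5913 reads over its listed sequence. miR-25 had 1069 and 160 beside 36578 and 5728. At the depth of miR-2478, 0 such reads therefore do not set it apart from these miRNAs. miR-451 is known to be made without Dicer and so leaves no second strand. No hairpin of miR-2887 was used here.

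The 3′ end of miR-2478 was read as a whole, partial or absent CCA tail. Among 3533 reads in the D library and 8432 in the P library that held bases 3 to 15 of the listed sequence, 3158 (89.4%, 88.3% to 90.4%) and 7774 (92.2%, 91.6% to 92.7%) ended exactly with CCA. Tails cut to CC had 22 and 52 reads, tails cut to C had 13 and 34, and reads without any tail base had 18 and 40. Partial tails were thus rare in both libraries. CCA followed by further bases had 76 and 89 reads.

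A small class of reads had other letters in place of the tail and ended in a run of T. It had 208 reads in the dry period (5.89%, 5.16% to 6.71%) and 387 at peak lactation (4.59%, 4.16% to 5.06%), with a log2 ratio of 0.81 (0.57 to 1.06), below that of the CCA-ended reads, 1.22 (1.16 to 1.28). The shared bases are in lower case, and the capitals are the letters that take the place of the tail.
64 and 58 reads: atcccacttctgacaGACTTTT
32 and 59 reads: atcccacttctgacaCACCCTTT
25 and 60 reads: atcccacttctgacaGGCGCGTTTT
0 and 33 reads: atcccacttctgacaCACACTTT
The letters before the T run differed between tags, so more than 1 sequence stands behind the listed bases. Their form is that of the trailer of a transfer RNA gene before it is cut off, as described above, and was not tested against the goat genome.

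Near copies of miR-2478 were present as well. Substitutions are written with the listed base, its position from the listed 5′ end and the base in the tag. T9C was the most frequent in the middle 14 bases, with 857 reads in the D library and 1463 in the P library. Its log2 ratio was 0.69 (0.57 to 0.81), below the interval of miR-2478, 1.14 to 1.25. C16G followed with 152 and 231 reads. This change puts G at the first letter of the tail, so its counts include reads of the class above that ends in a run of T. The most frequent such tag, with GACTTTT in place of the tail, had 64 and 58 reads. C16G is therefore not taken as a separate near copy. The full-length form of T9C is shown with the substituted base in capitals.
T9C neighbour of miR-2478: atcccactCctgacacca
It had 105 and 198 identical reads, whose log2 ratio of 0.83 (0.49 to 1.17) overlapped that of the reads identical to miR-2478. For miR-2887 the most frequent substitution was G9A, with 2 and 46 reads, so no near copy of similar abundance was found.

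The PCR primer list of the study gives other forms of both members, which are shown with bases 2 to 8 in capitals.
miR-2887, primer list: gGGGTCCGgtgcggagag
miR-2478, primer list: gTATCCCActtctgacacca
The form of miR-2887 has 18 bases and starts 8 bases into the listed sequence, so that its seed differs. Tags that hold it had 302 reads in the D library and 826 in the P library, a log2 ratio of 1.37 (1.18 to 1.56), which lay below that of the listed member. The form of miR-2478 has 20 bases, begins 2 bases upstream with the letters GT, and was held by 1207 and 2924 reads, a log2 ratio of 1.20 (1.10 to 1.29) like that of the member as a whole.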

How the data were processed

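The authors deposited 1 table of clean reads for each library, with each distinct tag and its count of reads. According to the study's methods, small RNA under 30 nt was cut from a gel, ligated to adaptors at both ends, amplified and sequenced (Solexa), and reads lacking an adaptor or insert, poly(A) reads and reads under 18 nt were removed; the submitters' processing notes name CASAVA without a version. No molecular identifiers were used, so counts include PCR copies.

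The deposited counts were used as they stand. Listed, hairpin and primer sequences came from the study's supplementary lists (sequences only). RPM was the count divided by all clean reads times 1000000. Ends were taken from tags holding the middle 14 bases exactly. Walks needed a 15-base overlap and at least 5 reads a step, for at most 120 steps on each side. With 1 library a stage no test was run, and 95% Wilson intervals (for ratios, of the split of reads between the libraries) cover counting error only. Python 3.11.15, numpy 2.4.6, scipy 1.17.1, matplotlib 3.10.9 and R 4.3.3 with edgeR 4.0.16 and DESeq2 1.42.0 (scaling factors only) were used. Counting of offsets was tested on simulated data, where all 2603 planted offset pairs came back.

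The members and lists were chosen with earlier results of these data known. The named miRNAs are the members, their neighbours in the order of 5′ end shares, the 3 nearest in ratio and the hairpins listed by the study; miR-380-3p and miR-1, next in 3′ end share, and the listed miRNAs with a ratio over 2-fold were named after their values were seen. The sorting of tails and of the base before the listed sequence was also devised after seeing the tags.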

Additional observations from a re-analysis of the deposited data

How the results depend on the processing

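No paired analysis was possible because each stage has 1 library and the results come from no test. Of 52 alternative values, 31 moved by less than the counting interval and 21 moved further. A change of direction could occur only for the log2 ratios of the levels, and 0 of these changed direction. Shares were compared by their percentage alone. For miR-2887 at peak lactation the last 14 bases thus counted as unmoved at 21.4%, although the most used 5′ end lay at offset +7 in place of -4. Both members remained higher at peak lactation under every alternative run. The log2 ratio of miR-2887 (2.64) was 2.32 with the first and 1.84 with the last 14 bases as the required stretch, 2.41 for tags of 18 to 25 nt, 4.71 divided by the reads of listed miRNAs, 4.07 with TMM factors and 4.05 with DESeq2 size factors. That of miR-2478 (1.20) was 1.09 with 1 mismatch allowed, 1.08 for 18 to 25 nt, 3.26 divided by listed miRNA reads, 2.62 with TMM and 2.60 with DESeq2 factors. The most used 5′ end of miR-2887 held 30.3% (first 14 bases) and 31.4% (last 14 bases, where it lay at offset +7) in the dry period, and 19.04% (first 14), 19.6% (middle 12) and 26.2% (18 to 25 nt) at peak lactation; that of miR-2478 at peak lactation held 25.5% for 18 to 25 nt. The listed 3′ end of miR-2478 held 92.9% and 94.4% (dry period and peak lactation) with the first 14 bases and 96.5% and 97.0% with tags of at least 2 reads. The higher ratios under the 3 miRNA-based scalings follow from the fall of the listed miRNAs as a whole; the cause of the other moves was not tested. The 5′ ends that can be seen depend on the required stretch, and animals within a stage cannot be compared.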
